A study of Mus musculus with 26 samples.

Results

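The comparison set the inguinal fat samples that carried the most skeletal muscle transcript against those that carried the least. A muscle score was computed for each of 26 arrays as the mean log2 intensity of 4 genes, Acta1, Ckm, Mylpf and Tnnt3, each by the probe of highest mean intensity. Within each of the 4 genotype groups the arrays were ranked by this score, the median array was set aside, and the arrays above and below it were called muscle-rich and muscle-poor. The members were thus chosen by the measured intensity of these 4 genes. This gave 11 muscle-rich and 11 muscle-poor arrays of 26, with 4 median arrays left out. The classes rest on measured values of the 4 genes, so the values of these genes are given as a description.

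Each array held 1 sample of total RNA of subcutaneous inguinal white adipose tissue of male C57BL6/J mice, hybridised in 1 colour. The ChREBPβ line held 5 ChREBPβ KO samples, from mice in which CRISPR/Cas9 editing had removed exon 1b of Mlxipl, and 7 WT samples. The total line held 7 total ChREBP KO samples, from mice null for Mlxipl and so without both ChREBP isoforms, and 7 WT samples. Every mouse had gone without food for 24 h and had then been given food again for 18 h, with 20% glucose in its drinking water. Mlxipl encodes ChREBP, a transcription factor that responds to carbohydrate. The age of the mice was not given in the sources used here. Neither deletion was restricted to fat, so muscle of the KO mice lacked the same isoforms.

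Skeletal muscle fibres are long contractile cells packed with sarcomeres, in which myosin motors pull on actin filaments under the control of the troponin complex and calcium. Fibres differ in the myosin heavy chain they build: slow oxidative fibres use Myh7, fast fibres use Myh2, Myh1 or Myh4 in order of growing speed, and Myh3 and Myh8 belong to developing or regenerating fibres. The inguinal fat pad lies under the skin close to the muscles of the thigh and abdominal wall. Acta1 encodes skeletal muscle actin, Ckm the muscle creatine kinase that buffers ATP, Mylpf the regulatory light chain of fast myosin, and Tnnt3 the troponin T of fast fibres, so that the 4 genes that made the score are mostly fast-fibre genes.

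The probes behind the score are shown because its values are those of single 60-base oligonucleotides. In the mm9 coordinates of the array files the Acta1 probe lies at chr8:126416197-126416256, the Ckm probe at chr7:20002222-20004829 and the Mylpf probe at chr7:134356749-134356985. The last pair span 2608 and 237 bases of genome, so both probes cross an intron. The probe named for Myh8, at chr11:67121925-67121984, is shown because its values enter the results on myosins, and the capitals mark the run of 19 bases that it shares with the Myh1 probe.
Acta1 probe: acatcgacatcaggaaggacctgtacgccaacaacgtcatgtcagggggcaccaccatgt
Ckm probe: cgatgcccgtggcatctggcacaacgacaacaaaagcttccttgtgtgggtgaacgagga
Mylpf probe: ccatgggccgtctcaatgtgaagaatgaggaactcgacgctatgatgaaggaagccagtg
Myh8 probe: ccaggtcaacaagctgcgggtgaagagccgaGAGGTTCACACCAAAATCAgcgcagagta

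The promoters of 3 of the 4 genes, and of Myh4, the gene with the greatest difference between the classes, are shown because the genes above moved together. The sequences are the 250 bases before the start of each gene in RefSeq (GRCm38.p6). No RefSeq promoter was matched for Tnnt3. Capitals mark matches, on either strand, to the E-box CAGCTG, to the CArG box, to the MEF2 site and to the TATAAA element.
Acta1 promoter, chr8:123894776-123895025, minus strand: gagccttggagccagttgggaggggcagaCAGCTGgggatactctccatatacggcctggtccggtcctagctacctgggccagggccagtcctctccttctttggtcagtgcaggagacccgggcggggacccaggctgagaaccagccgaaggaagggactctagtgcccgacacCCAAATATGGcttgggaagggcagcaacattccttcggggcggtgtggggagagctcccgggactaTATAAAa
Ckm promoter, chr7:19410844-19411093, plus strand: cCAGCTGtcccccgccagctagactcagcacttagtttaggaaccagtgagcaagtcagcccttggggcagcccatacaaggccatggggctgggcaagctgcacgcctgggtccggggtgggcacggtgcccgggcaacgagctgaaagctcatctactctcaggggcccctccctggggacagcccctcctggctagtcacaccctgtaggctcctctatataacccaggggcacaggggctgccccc
Mylpf promoter, chr7:127211358-127211607, plus strand: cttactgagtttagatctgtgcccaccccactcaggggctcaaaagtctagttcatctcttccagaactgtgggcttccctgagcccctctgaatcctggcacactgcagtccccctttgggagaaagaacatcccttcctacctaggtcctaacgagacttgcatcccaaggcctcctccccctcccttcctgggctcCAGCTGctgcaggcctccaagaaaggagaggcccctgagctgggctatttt
Myh4 promoter, chr11:67237562-67237811, plus strand: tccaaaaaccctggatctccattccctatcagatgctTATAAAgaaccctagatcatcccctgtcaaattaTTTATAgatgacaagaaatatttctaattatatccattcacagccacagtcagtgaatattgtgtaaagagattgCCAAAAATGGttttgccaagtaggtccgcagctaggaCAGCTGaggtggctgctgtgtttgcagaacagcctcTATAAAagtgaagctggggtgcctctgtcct

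All 4 promoters held a CAGCTG E-box, and those of Acta1 and Myh4 also held a CArG box. Over 32851 RefSeq promoters of this length, 13% held CAGCTG, 1.47% a CArG box, 0.508% a MEF2 site and 12.4% TATAAA. Among the 77 genes higher in muscle-rich arrays by the test below, the 4 score genes included, 55 had a promoter in the table, and 26 of these, or 47.3%, held CAGCTG against 12.8% of 27025 genes with a promoter. E-boxes are sites of the MyoD family, the CArG box that of serum response factor and the MEF2 site that of the MEF2 factors, which act in muscle. A CArG box stood in 5 of the 55 and a MEF2 site in 4 of the 55. Of the tested muscle list genes 63 had a promoter, and 41.3% of these held CAGCTG. The 77 genes follow a ranking made from muscle genes, so their share describes a muscle gene set and not these arrays. These counts describe letters in a window and not bound sites.

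Muscle transcript was far from uniform across the fat samples. The score ran from 6.30 in total KO replicate 4 to 14.30 in total KO replicate 7. In the ChREBPβ WT group it had a lowest value of 6.50, a median of 9.31 and a highest of 12.09, and in the ChREBPβ KO arrays these were 7.13, 9.38 and 13.25. In the total KO group they were 6.30, 10.86 and 14.30, and in the total WT group 6.34, 6.52 and 11.83. The plot of the score by group shows that the groups covered much the same range, except that 5 of 7 total WT arrays lay at the floor.

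**Figure D1:**
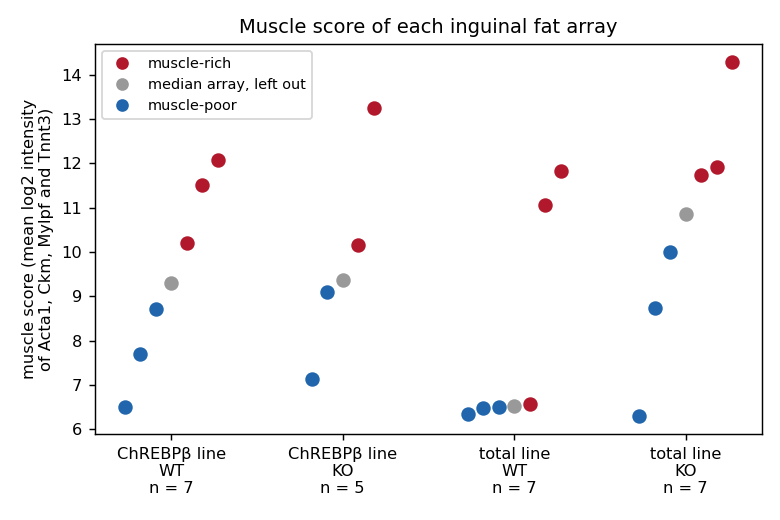
Muscle score of each array, the mean log2 intensity of Acta1, Ckm, Mylpf and Tnnt3, in the 4 genotype groups. Each point is 1 array, coloured by its class. In the total WT group 5 of 7 arrays lie between 6.34 and 6.56, and 1 of these is classed as muscle-rich.

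The edges of the classes differed between the groups. The highest muscle-poor, the median and the lowest muscle-rich array scored 8.71, 9.31 and 10.20 in ChREBPβ WT and 9.11, 9.38 and 10.15 in ChREBPβ KO. They scored 9.99, 10.86 and 11.73 in total KO but 6.50, 6.52 and 6.56 in total WT. Total WT replicate 7 was therefore classed as muscle-rich with a score of 6.56, next to the muscle-poor arrays of its group. Total KO replicate 3, classed as muscle-poor at 9.99, lay close to ChREBPβ KO replicate 6, classed as muscle-rich at 10.15. The scanner calls ask that a spot be found, be positive and significant, and lie well above background. A probe that passed all of them is called well above background here. Ckm passed on 16 of 26 arrays, and 7 arrays scored under 7. The calls do not follow intensity alone, since Ckm failed at 7.97 in ChREBPβ WT replicate 2 and passed at 5.19 in ChREBPβ WT replicate 6.

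Among the score genes, Ckm intensity on the log2 scale had a lowest value of 4.43, a median of 9.52 and a highest of 12.61 over the 11 muscle-rich arrays, against 4.18, 4.65 and 7.83 over the 11 muscle-poor arrays. It passed the scanner calls on 9 muscle-rich and 4 muscle-poor arrays. Acta1 ran over 7.27, 12.49 and 14.86 in the muscle-rich and over 6.71, 9.43 and 11.49 in the muscle-poor arrays. With the genotype group as a block the muscle-rich arrays were higher by 3.84 for Ckm, 3.13 for Acta1, 3.45 for Mylpf and 4.55 for Tnnt3 on the log2 scale, and by 3.74 for the score. These differences follow from the ranking. The other 2 probes of Tnnt3 differed by 5.02 and 5.07, whereas the other Mylpf probe, with means of 5.90 and 5.87, differed by 0.03.

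The score did not pass a test between genotypes, a comparison that the ranking within groups had not used. It was higher by 2.65 in total KO (10.55 ± 2.55, SD, n = 7) than in total WT arrays (7.90 ± 2.44, SD, n = 7), with a two-sided exact permutation p of 0.0717, 0.215 after Benjamini-Hochberg adjustment over 3 comparisons. The ChREBPβ KO arrays (9.80 ± 2.23, SD, n = 5) and their WT arrays (9.43 ± 2.01, SD, n = 7) differed by 0.37 (exact permutation p = 0.761, adjusted p = 0.761). The ChREBPβ WT arrays were higher by 1.53 than the total WT arrays (exact permutation p = 0.217, adjusted p = 0.325). In these bulk samples, fewer muscle cells and less muscle RNA per cell cannot be told apart.

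Measures of signal quality overlapped between the classes. Over the 26 arrays the median signal ran from 59 to 107.5 units, and 70.2% to 76.5% of spots were well above background. The median signal, the background and this share did not pass an exact permutation test between the classes (two-sided p = 0.690, 0.460 and 0.373), and arrays correlated at 0.953 to 0.997. Adipoq, which encodes the adipocyte hormone adiponectin, lay at 16.22 to 17.67 on the log2 scale on every array. Mlxipl lay at 13.63 to 13.95 in total KO against 15.77 to 16.53 in total WT arrays, and at 13.93 to 14.36 in ChREBPβ KO against 15.24 to 16.18 in its WT arrays. Whether its probe lies inside the deleted sequence is not given in the sources used here.

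Skeletal muscle genes were the largest labelled group among those that followed the ranking, and no fat cell gene passed the test. Fast-fibre, sarcomere and calcium-release genes were higher in muscle-rich arrays, while adipocyte, lipogenic, vascular and immune lists held no gene that passed the test. Among 25208 genes tested besides the score genes, 73 were higher and 0 lower in muscle-rich arrays (limma with the genotype group as a block, Benjamini-Hochberg adjusted p under 0.05), so that 0.29% of all genes were called higher. At an unadjusted p under 0.05 the counts were 787 higher and 647 lower. Of the 73 genes, 34 stood among the 84 tested genes of the muscle lists, 1 among 167 genes of other lists, and 38 in no list. The muscle lists share their source with the ranking, so their calls are a description. The median difference was 0.87 over the muscle lists, -0.0038 over the other lists and -0.0099 over all genes. No gene separated the classes completely, and 0 genes, or 0%, had muscle-rich arrays all above or all below the muscle-poor ones.

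The classes were unevenly spread over the wash batches that the labels give, with 1, 4, 3 and 3 muscle-rich and 4, 1, 2 and 4 muscle-poor arrays in batches 1 to 4. With the wash batch as a further block, 0 genes passed (1195 at an unadjusted p under 0.05). The differences of the 10 largest rises outside the lists and of Cox6a2 then ran from 1.85 to 3.26, against 1.82 to 3.22 without the block, while their adjusted p from limma ran from 0.0684 to 0.17. Over all alternatives run, these adjusted p ran from 9.52e-12 to 0.76. Within single batches, not adjusted for genotype, these 11 genes differed by 1.71 to 3.56, 1.77 to 3.99, 1.63 to 4.18 and 2.12 to 3.25 in batches 1 to 4. The genes were picked for their rise on these arrays, so the sign of these values is no support. Batch 1 held 1 muscle-rich and batch 2 held 1 muscle-poor array. Without total WT replicate 7, 88 genes were called, 41 of them in the muscle lists, and 70 of the 73 were among the 88. The count fell to 0 without the ChREBPβ WT arrays and to 0 without the total KO arrays, each of which leaves 16 arrays.

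**Figure D2:**
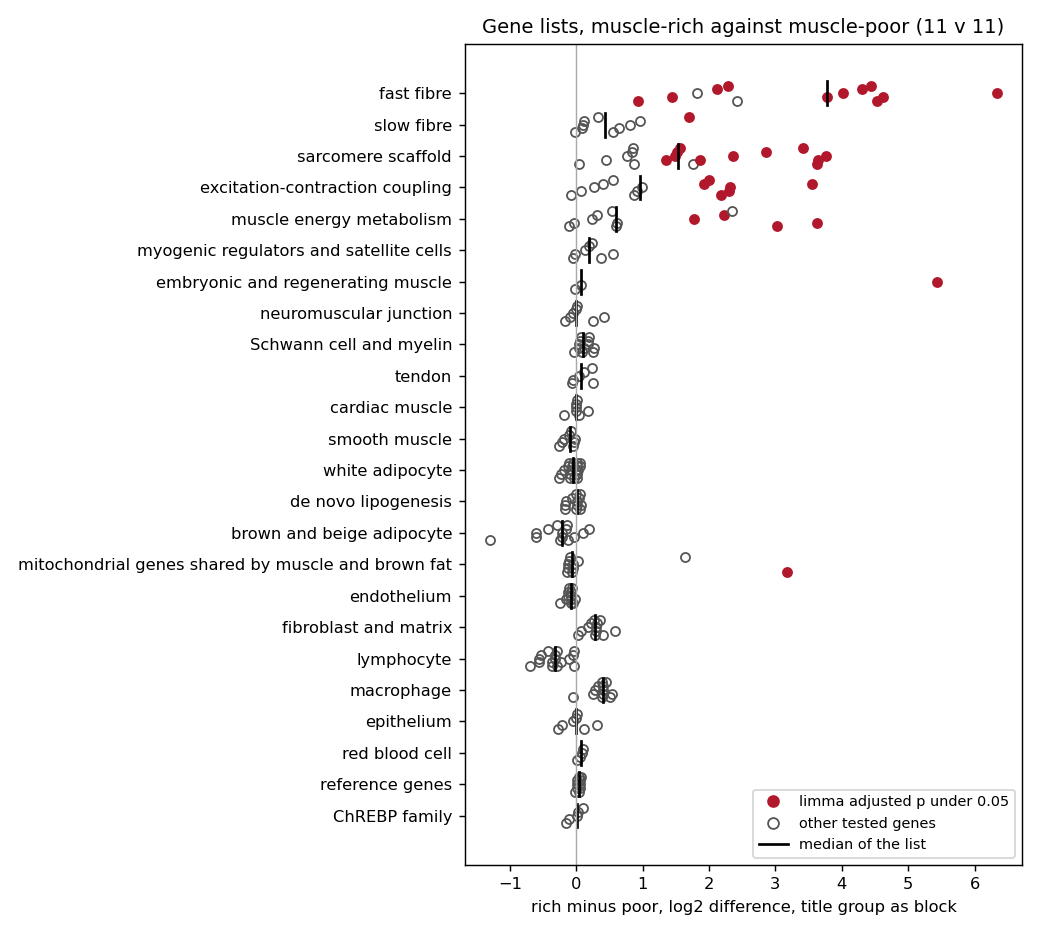
Log2 difference of muscle-rich against muscle-poor arrays for every tested gene of 24 lists, with the genotype group as a block. Filled points passed limma's adjusted p of 0.05, and the black bar is the median of the list. Filled points lie in the muscle lists, apart from Cox6a2 among the mitochondrial genes.

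Fast-fibre genes showed the greatest differences, 11 of 13 being called, with a median of 3.77. Myh4, the myosin of the fastest fibres, ran over 5.28, 14.82 and 17.21 (lowest, median and highest log2 intensity) in muscle-rich and over 4.42, 4.94 and 13.04 in muscle-poor arrays. The highest muscle-poor array lay below the median of the muscle-rich arrays, and Myh4 was higher by 6.34 ± 1.20 (SE). Its probe was well above background on 11 muscle-rich but 6 muscle-poor arrays, so no fold is given. Pvalb, the calcium buffer of fast fibres, ran over 6.24, 12.61 and 15.40 against 5.75, 6.53 and 10.68 and differed by 4.61. Tnnc2 and Tnni2, the fast troponins C and I, differed by 4.54 and 4.44, and Actn3, the fast-fibre actinin of the Z disc, by 4.30. The score genes are themselves of this kind, and ranking by the 13 fast-fibre genes put 0 arrays into another class.

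Fast fibres were not all represented alike. Myh1 and Myh2, the myosins of the intermediate fast fibres, differed by 2.42 and 1.82 and were not called. In the 2 arrays of highest score, total KO replicate 7 and ChREBPβ KO replicate 4, Myh4 was at its highest, 17.21 and 16.53. Myh1 was 7.68 and 10.38 there and Myh2 5.89 and 7.12. Myh2 was instead highest in total WT replicate 1 (11.34), total KO replicate 1 (10.96) and total KO replicate 2 (10.73), whose scores lay between 11.73 and 11.92.

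Raised levels of the slow myosin Myh7 and of Myl2 were seen in 3 arrays, although their probes were well above background on 26 and 22 of 26 arrays. The slow-fibre list had 1 of 10 tested genes called, Mybpc1, a myosin-binding protein (higher by 1.69), and a median of 0.44. A further 4 of its 14 genes did not pass the filter on dim probes. Myh7 reached 10.30 in total WT replicate 1, 9.49 in total KO replicate 2 and 7.18 in total KO replicate 1, against 5.05 to 6.09 in the other arrays. Myl2, the slow regulatory light chain, stood at 10.11, 9.62 and 7.41 in the same arrays and at 5.21 to 6.34 elsewhere. Muscle-rich arrays thus overlapped almost completely with muscle-poor arrays for both genes, with medians of 5.84 and 5.73 for Myh7. Neither was called, with differences of 0.80 and 0.96.

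**Figure D3:**
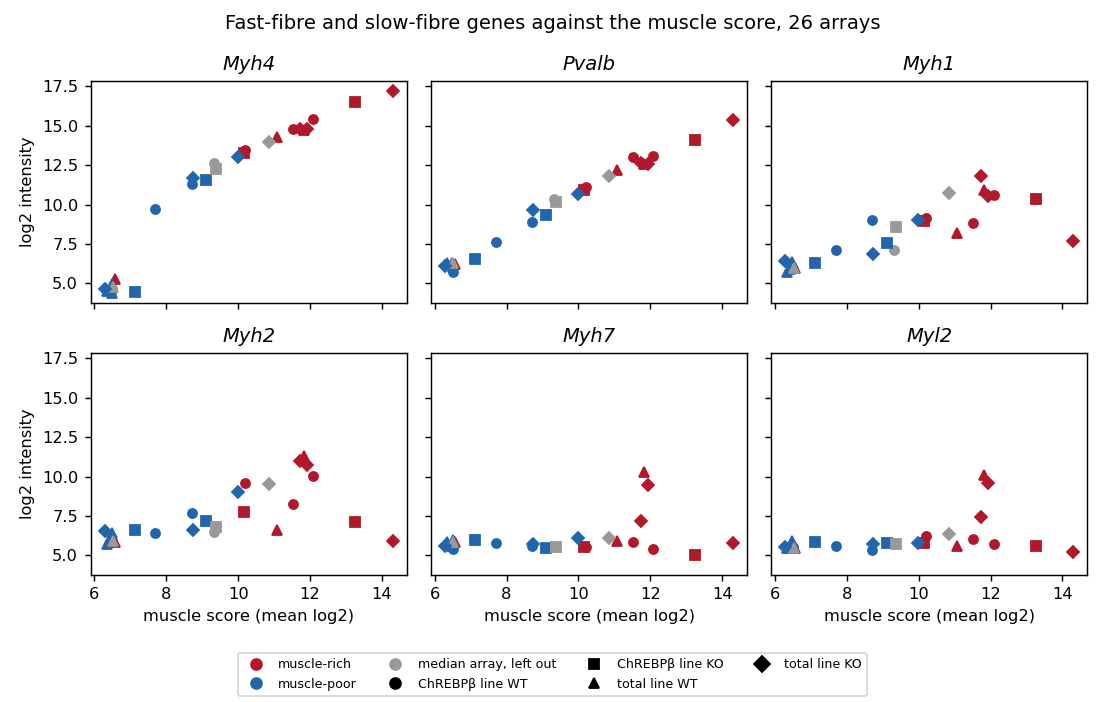
Log2 intensity of Myh4, Pvalb, Myh1, Myh2, Myh7 and Myl2 against the muscle score on 26 arrays, with colour for the class and shape for the genotype group. Myh4 and Pvalb climb along the score, Myh1 and Myh2 are below their highest values in the 2 arrays of highest score, and Myh7 and Myl2 stand out in 3 arrays of score 11.73 to 11.92.

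Genes of the sarcomere scaffold had 11 of 18 members called, with a median of 1.54. Ttn, the giant spring protein titin, ran over 5.97, 10.29 and 12.13 in muscle-rich and over 4.33, 5.79 and 8.37 in muscle-poor arrays and was higher by 3.77. Myom2, a cross-linker of the M band, was higher by 3.63, Tcap, the titin cap, by 3.63, and Myot, a Z-disc protein, by 3.41. In excitation-contraction coupling, 6 of 14 genes were called, with a median of 0.95. Trdn, which anchors the calcium-release complex, was higher by 3.55, the voltage sensor Cacna1s by 2.31, the myosin light chain kinase Mylk2 by 2.30 and the calcium-release channel Ryr1 by 2.18.

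Muscle energy metabolism had 4 of 12 genes called, with a median of 0.60. These were the glycolytic enzymes Pgam2 (higher by 3.62) and Eno3 (1.77), the mitochondrial creatine kinase Ckmt2 (3.03) and the muscle glycogen phosphorylase Pygm (2.22). Mb, the oxygen store myoglobin, ran over 4.76, 8.34 and 10.36 in muscle-rich and over 4.78, 5.27 and 7.48 in muscle-poor arrays. It was higher by 2.34 and was not called.

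Genes of muscle stem cells and of the nerve contact did not pass. The list of myogenic regulators and satellite cells had 0 of 7 tested genes called and a median of 0.19, with differences of 0.55 for the adhesion protein Cdh15, 0.38 for Myod1 and -0.05 for Pax3. Of its 15 genes 8 were too dim to be tested, among them Pax7 and Myog. The neuromuscular junction list had 0 of 7 called and a median of -0.0056. Of the genes of embryonic or regenerating fibres 3 were tested, and Myh8 alone was called, higher by 5.44.

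The Myh8 signal followed that of Myh4 closely. Pearson's r between these genes over 26 arrays was 0.996, and both probes read the same tissue pieces. On the 18 arrays with a score above 7.5, Myh4 minus Myh8 lay between -0.10 and 0.25 on the log2 scale. On the other 8 arrays it lay between -2.13 and -1.34. The genes lie in 1 cluster of related myosins on chromosome 11, and the longest run of bases that the Myh8 probe shares is 7 with the Myh4 probe and 19 with the Myh1 probe, the latter printed above. In total KO replicate 7 the Myh8 probe was at its highest, 17.12, whereas the Myh1 probe, whose highest value was 11.83, was at 7.68. Whether the Myh8 probe takes up transcripts of the other myosins was not tested, and Myh3, the embryonic myosin, was too dim to be tested. Myh4 has a second probe, with means of 6.48 and 6.38, that differed by 0.10.

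Outside the muscle lists, Cox6a2 was the only called gene of the other lists, and 38 further genes were in no list. Cox6a2, the muscle form of a cytochrome c oxidase subunit, ran over 8.57, 11.01 and 12.97 in muscle-rich and over 5.97, 7.94 and 9.52 in muscle-poor arrays. It was higher by 3.18 ± 0.49 (SE), or 9.04-fold (limma adjusted p = 0.00585), and by 2.09 to 3.98 within each of the 4 groups. Its probe passed the scanner calls on 11 muscle-rich and 9 muscle-poor arrays. The calls failed at 8.16 in ChREBPβ KO replicate 2 and at 8.30 in ChREBPβ WT replicate 8, both above the muscle-poor median. Fabp3, the fatty acid carrier of heart and muscle, was higher by 1.63 without passing (adjusted p = 0.0914). The other genes of this list, which muscle and brown fat share, kept to small differences: -0.13 for Cox8b, a muscle and brown fat oxidase subunit, -0.13 for the coactivator Ppargc1a, and -0.05 for Cpt1b, which brings fatty acids into mitochondria.

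**Figure D4:**
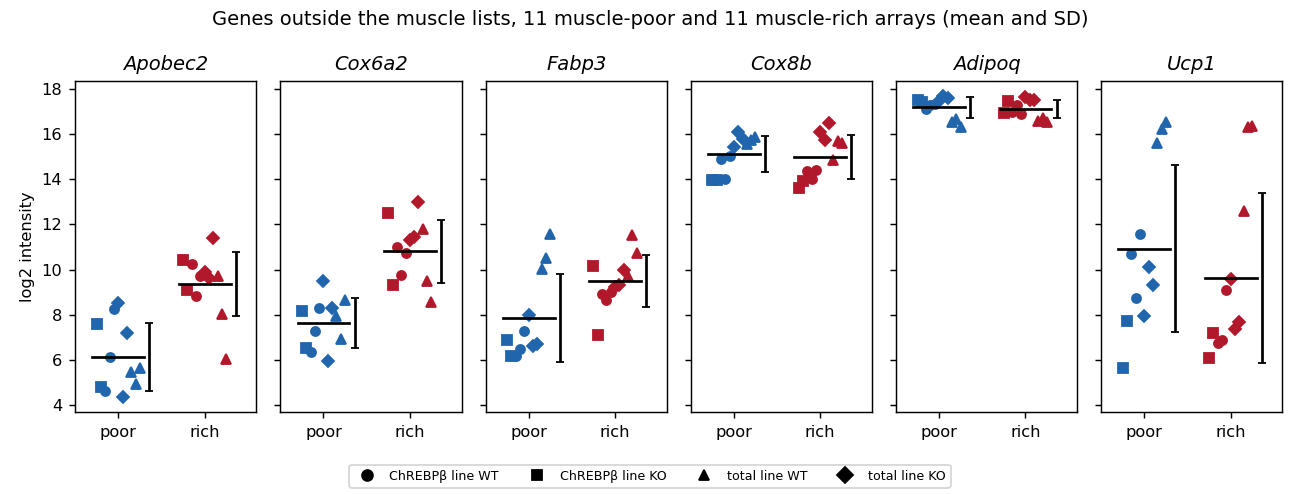
Log2 intensity of Apobec2, Cox6a2, Fabp3, Cox8b, Adipoq and Ucp1 on 11 muscle-poor and 11 muscle-rich arrays. Points are arrays, with shape for the genotype group, lines are means and bars are SD. Apobec2 and Cox6a2 are higher in muscle-rich arrays in every group, and Cox8b, Adipoq and Ucp1 cover much the same range in both classes.

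Apobec2, a deaminase family protein of striated muscle, rose most among the genes of no list. It ran over 6.03, 9.72 and 11.38 in muscle-rich and over 4.36, 5.68 and 8.52 in muscle-poor arrays and was higher by 3.22 ± 0.53 (SE), or 9.33-fold (limma adjusted p = 0.00667, with the probe well above background on 11 muscle-rich and 8 muscle-poor arrays). Its difference was 2.57 after normexp background correction and 4.17 with scaling to the 75th percentile, so the fold depends on the processing. Apobec2 was followed by the splicing factor Rbfox1 (2.78), Prr33 (2.37), the sarcomeric ubiquitin ligase Trim54 (2.32), the kelch protein Klhl31 (2.19), the ankyrin Ank1 (2.10), Asb11 (1.95), Sh3bgr (1.95), the ADP-ribosyltransferase Art1 (1.94) and the phosphatase Dusp13 (1.82). All of the 35 called genes of no list with a symbol in the reference were higher in each of the 4 groups, and 0 genes fell. These genes were called on the same arrays, so their shared sign is a description and no support. Contrasts within single groups called 0 genes. Among probes not used to represent a gene, 1 of Baz1b was lower by 0.24 (limma adjusted p = 0.0333), singled out after its value was seen.

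The genes most like the score were largely the same. After the group means were subtracted, the 10 likest genes outside the lists over 26 arrays were Trim54, Prr33, Rbfox1, Apobec2, Klhl31, Art1, Asb5, Cav3, Ank1 and Sh3bgr, with Pearson's r from 0.961 down to 0.927. Cav3, the caveolin of muscle membranes, was higher by 1.82. The points share libraries and scaling, so the correlations are a description.

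Fat cell genes did not pass the test in either direction. The white adipocyte list had 0 of 20 genes called and a median of -0.04, with Adipoq at 16.53, 16.98 and 17.62 in muscle-rich against 16.32, 17.32 and 17.67 in muscle-poor arrays. Its difference was -0.085 ± 0.071 (SE). De novo lipogenesis, by which fat cells build fatty acids from glucose, had 0 of 12 called and a median of 0.0041. The fatty acid synthase Fasn differed by 0.05, the elongase Elovl6 by -0.07, the carboxylase Acaca by 0.0006, the desaturase Scd1 by 0.04, and the regulators Srebf1 and Srebf2 by 0.0076 and -0.05. Mlxipl differed by -0.16 ± 0.09 (SE, limma adjusted p = 0.935).

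Among thermogenic genes Ucp1 stood out by its spread between the groups. Ucp1, the uncoupling protein of brown and beige fat cells, ran over 6.09, 7.69 and 16.33 in muscle-rich and over 5.68, 10.099 and 16.53 in muscle-poor arrays. It lay at 12.58 to 16.53 in total WT arrays and at 5.68 to 11.57 in the other groups, so that the classes overlapped over nearly the whole range. Its difference was -1.30 ± 0.52 (SE, limma adjusted p = 0.819), negative in each of the 4 groups. The brown and beige list had 0 of 14 genes called and a median of -0.21, with -0.42 for the lipid droplet protein Cidea and -0.12 for the regulator Prdm16.

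Lists of other cells held no called gene but leaned in one direction in several cases. Fibroblast and matrix genes were positive for 12 of 12, with 0 called and a median of 0.29, and macrophage genes for 11 of 12, with 0 called and a median of 0.40. Lymphocyte genes were negative for 16 of 16, with 0 called and a median of -0.32, and endothelial genes for 12 of 12, with a median of -0.08. Of all 25208 genes, 11258 were positive and 13950 negative. The genes of a list were read on the same arrays and are not independent, so these sign counts are a description. The mean of the lymphocyte list ran over 7.43, 8.12 and 12.48 in muscle-rich and over 7.51, 8.89 and 12.56 in muscle-poor arrays. For macrophages it ran over 11.39, 12.36 and 13.32 against 11.14, 11.77 and 13.29, and for fibroblasts over 12.20, 13.07 and 14.05 against 11.97, 12.95 and 13.75. With the lymphocyte mean as a covariate 59 genes were called and 54 of the 73 remained, while the part of the other lists was not tested.

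No gene of the tissues that accompany muscle passed the test. Schwann cell and myelin genes had 0 of 12 called with a median of 0.10, tendon genes 0 of 6 with 0.08, and cardiac muscle genes 0 of 7 with -0.0009. The smooth muscle list had 0 of 8 called and a median of -0.10, with -0.27 for Acta2, the actin of vessel walls. Red blood cell genes had 0 of 4 called with a median of 0.07, epithelial genes 0 of 7 with -0.0008, reference genes 0 of 10 with 0.04, and the ChREBP family 0 of 5 with 0.01.

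A dependence of the difference on genotype or line was not detectable with these arrays. The muscle list median was 0.85 in ChREBPβ KO, 0.81 in ChREBPβ WT, 1.33 in total KO and 0.68 in total WT, where the score differed by 3.58, 3.63, 4.31 and 3.38. Contrasts within single groups had 0 genes called in each, with 1233, 1146, 858 and 2073 genes at an unadjusted p under 0.05. The interaction of class with genotype, KO minus WT, had 0 genes called by limma (1023 at an unadjusted p under 0.05), and that with the line 0 (723). With 2 or 3 arrays a class in each group, the number of arrays limits these tests.

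The comparison of KO with WT mice, for which the arrays were made, was fitted with and without the score. Without it, total KO against WT had 11681 of 25212 genes called, or 46.3%, and 10750, or 42.6%, with the score as a covariate, of which 10331 were shared. Muscle was not the only tissue measure that differed between total KO and total WT arrays. Adipoq lay at 17.45 to 17.67 in total KO and at 16.22 to 16.69 in total WT arrays. The mean of the lymphocyte list ran from 8.12 to 11.42 in total KO and from 11.07 to 12.74 in total WT arrays. The part of such differences in the KO calls was not tested. Of 88 muscle list genes, the score genes included, 25 were called higher and 4 lower in total KO without the covariate, beside 26.1% of all genes higher and 20.2% lower. The count of higher genes was thus near the share over all genes. With the covariate 9 were called higher and 10 lower, beside 24.2% and 18.5% of all genes. The median difference of the 88 genes moved from 0.67 to -0.0171, beside 0.05 over all genes in both fits. The score genes are part of the covariate and genes such as Myh4 correlated with it at 0.956, so their loss with the covariate is built in and is a description. Leaving out the muscle-rich arrays instead did not lower the muscle calls. On the remaining 15 arrays 36 of the 88 genes were called higher and 4 lower, beside 15.5% and 11.7% of all genes, with a median of 0.41. The score still ran from 6.30 to 10.86 in the total KO and from 6.34 to 6.52 in the total WT arrays that remained. Total WT arrays at 11.07 and 11.83 had been removed by the cut. The cut was made on the score itself and left this gap, so these calls are a description and no test of genotype.

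Among single muscle genes, Myh4 differed by 5.32 ± 2.12 (SE, limma adjusted p = 0.0422) in total KO against WT. With the covariate its difference was 0.71 ± 0.70, and without the muscle-rich arrays it was 6.17 ± 2.14. Acta1, a score gene, differed by 2.74 ± 1.03 (SE, limma adjusted p = 0.032) without the covariate. The other score genes did not pass in that fit (limma adjusted p = 0.0748 for Ckm, 0.101 for Mylpf and 0.076 for Tnnt3). Without the muscle-rich arrays Acta1 differed by 2.64 ± 0.70 (SE). The arrays left out were picked by a score that includes Acta1, so the latter value is a description. Cox6a2 differed by 1.04 ± 0.97 (adjusted p = 0.401) and with the covariate by -1.05 ± 0.38 (adjusted p = 0.0276). Fat cell genes moved by smaller amounts: Elovl6 differed by -3.30 and -3.28, Acaca by -2.02 and -2.07, Mlxipl by -2.28 and -2.24, and Ucp1 by -6.87 and -5.94. In the ChREBPβ line 13 genes, or 0.0516%, were called without and 12, or 0.0476%, with the covariate, all 12 shared and 0 of them in the muscle lists.

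**Figure D5:**
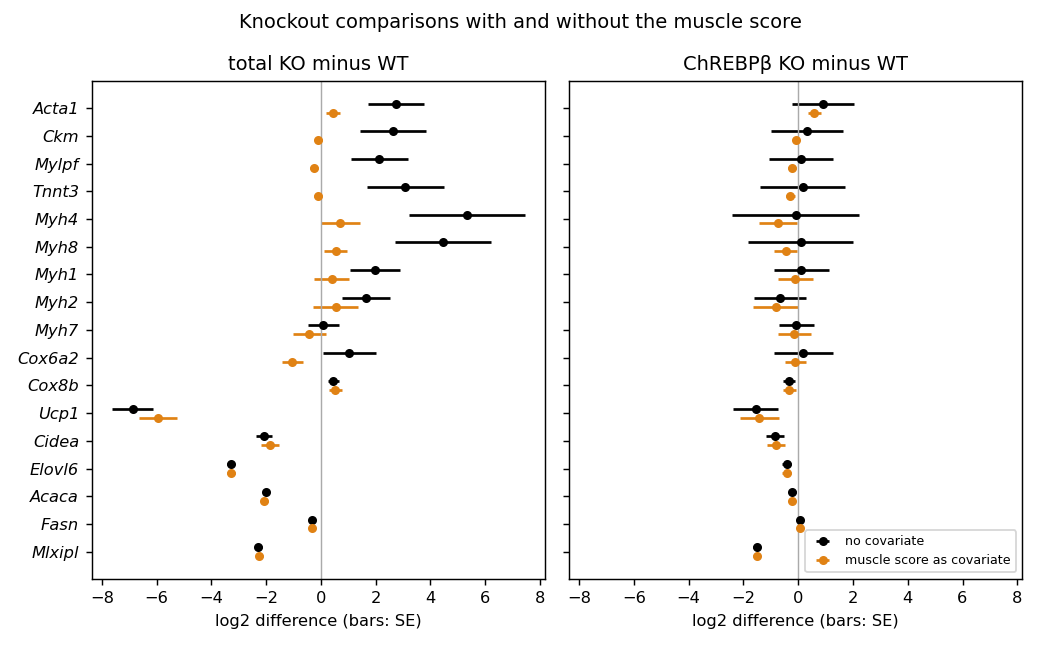
Log2 difference of KO against WT arrays in the total line (left) and the ChREBPβ line (right) without (black) and with (orange) the muscle score as a covariate. Points are limma estimates and bars are SE. The score genes Acta1, Ckm, Mylpf and Tnnt3 are part of the covariate, so that their shift is built in. In the total line Cox6a2 moves from 1.04 to -1.05 with the covariate, while Elovl6, Acaca and Mlxipl stay at -3.28, -2.07 and -2.24.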

How the data were processed

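RNA of inguinal white adipose tissue of 26 mice was labelled with Cy3 and hybridised to Agilent SurePrint G3 Mouse GE v2 arrays. Per the labels, scans were read with Agilent Feature Extraction 10.10.1.1. The authors deposited log2 values, quantile normalized and kept for probes above background on most arrays, for 40168 probes (97 values missing), and these were used here. The deposited scanner files hold spot intensity (62976 spots, 0 saturated) and calls of spots well above background. Log2 values recomputed from the scanner intensity correlated with the deposited values at 1.00 on every array, so scale and direction are known. Because of quantile normalization every value is relative to the rest of its array, and depth enters only as signal over background.

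Probes were kept if they passed all of these calls on at least 21 of 26 arrays or on 75% of 1 genotype group, which left 38499 probes. Each of 25212 gene names was represented by its probe of highest mean, and 17263 of these names matched the reference gene table. Muscle-rich and muscle-poor arrays were compared with limma 3.58.1 in R 4.3.3 with the genotype group as a block (17 residual degrees of freedom) and Benjamini-Hochberg adjustment over all probes. Groups came from the sample titles. The p-values ask whether a gene follows a ranking made from measured values, and although the study's methods say that ChREBPβ line mice came from several litters, which samples share one is not given in the sources used here. Single values were compared by exact permutation, over 48000 relabellings within groups for the classes. Methods were tested on simulated data. Columns of other samples numbered 0.

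The members and gene lists were chosen with earlier results of these data known. Named genes were the 4 score genes, 6 adult and developmental myosins, up to 4 genes of largest difference in each list, the 10 largest rises and falls outside the muscle lists, the 10 genes likest to the score, Mlxipl, and the thermogenic and lipogenic genes that the study measured. Further list members are named where the text needs them, after their values were seen. Alternatives were other scalings, background corrections and filters, the score as a continuous variable, batch, slide and replicate blocks, a lymphocyte covariate, and leaving out arrays or groups. Probe positions are those of the array files (mm9), and promoters those of RefSeq (GRCm38.p6).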

Additional observations from a re-analysis of the deposited data

How the results depend on the processing

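The main comparison called 73 genes, 34 of them in the muscle lists and 1 in the other lists. The counts stayed within 1.5 times with scanner signals, with scaling to the 75th percentile, without the filter, with the slide as a random block, with the lymphocyte covariate and without the ChREBPβ KO arrays. They were 46 in all after normexp correction, and 11, 8 and 0 with probes well above background on all 26 arrays, which removes many muscle probes by construction. With the score as a continuous variable they were 143, 53 and 2. They were 0, 0 and 0 with the wash batch as a block, and 0, 0 and 0 without the ChREBPβ WT arrays and again without the total KO arrays. Without the total WT arrays 48 genes were called in all, 2 in the other lists. Leaving out 1 array gave 42 (without total KO replicate 5) to 101 (without ChREBPβ KO replicate 6) genes in all, 26 to 42 in the muscle lists and 1 to 2 in the other lists. The count also fell by over 1.5 times without total KO replicate 4 (44), ChREBPβ WT replicate 1 (44) or 4 (47), ChREBPβ KO replicate 5 (45) or total WT replicate 1 (46). The cause was not tested in these cases.

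Whether the replicate numbers pair the samples is not given in the sources used here. Of 30 pairs with the same number, correlations of deviations ran from -0.454 to 0.51 and 10 were above 0.1. Pairs with different numbers were not set beside them, so these values do not settle it. With a replicate block 0, 0 and 0 genes were called (1335 at an unadjusted p under 0.05), and the 11 named genes outside the muscle lists then differed by 1.70 to 3.17 with limma adjusted p of 0.573 to 0.76. Without the muscle-rich arrays, which leaves 15 arrays, total KO against WT had 6867 genes called and ChREBPβ KO against WT had 1. The muscle lists then had 36 higher and 4 lower calls in total KO, beside 15.5% and 11.7% of all genes. These muscle calls follow a cut made on the score and are a description. An alternative chosen after seeing the data, the continuous score without the 2 arrays of highest score, called 109 genes, 67 of them among the 73. No difference of these 11 genes changed sign in the alternatives run. The genes were picked for their rise on these arrays, so the kept sign is no support. Intensities near background limit Ckm and other dim probes in muscle-poor arrays.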
